A study of Mus musculus with 4 samples.

Results

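Matrix metalloproteinases (MMPs) and their tissue inhibitors (TIMPs) were examined in adipocyte progenitor cells, from which new fat cells form, of Adamts1 transgenic and wild-type mice. The 10 genes described are the MMPs Mmp2, Mmp3, Mmp11, Mmp14, Mmp17, Mmp19 and Mmp23 and the inhibitors Timp1, Timp2 and Timp3, chosen as a named list. They stand among 24518 features tested and carry 12 of the 55681 probes. The list was drawn up when earlier results of these data were known. Each member was found by the gene name of its probe or by the current symbol of its accession. The 2 transgenic samples and the 2 wild-type samples came from 4-week-old males of the FVB strain, and the tissue was subcutaneous fat. All samples were sorted by flow cytometry, lysed without culture or treatment, and hybridised singly to single-colour Agilent arrays. The promoter of the transgene, the number of mice behind a sample and the sort markers are not given in the sources used here, and neither is any statement that replicates came from separate animals. The p-values therefore measure the spread between these samples, which may be technical.

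MMPs are zinc-dependent proteases that cut collagens, gelatin, proteoglycans and other proteins at or near the cell surface. Most are made as inactive precursors, and some are secreted while others are held on the membrane. TIMPs bind the active site of MMPs and block it, and TIMP3 is also known to inhibit several ADAM and ADAMTS proteases, among them the family to which Adamts1 belongs. In fat tissue the turnover of the matrix around precursors and adipocytes accompanies the growth of the depot.

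Several features of the arrays touch every value. Between 56.0% and 57.0% of non-control spots were well above background on the transgenic arrays, against 47.0% on wild-type array 1 and 55.5% on wild-type array 2. The lowest signal well above background was -4.98 and -4.93 on the transgenic arrays, against -3.60 on wild-type array 1 and -4.94 on wild-type array 2, as log2 processed signal minus the array's 75th percentile, the scale called normalised log2 signal from here on. Levels on this scale are compared between arrays for 1 probe, never between genes, since probes differ in brightness. The number of arrays limits the precision: an exact permutation test of 2 arrays against 2 cannot give a two-sided p below 0.333, so tests rest on the limma fit across all features. In bulk RNA, fewer cells of a type and less RNA per cell cannot be told apart. The gene of the transgene, Adamts1, stood at 6.77 and 6.82 in the transgenic samples, against 6.65 and 6.73 in the wild-type samples (difference 0.11 ± 0.09 SE, adjusted p = 0.573 in the limma fit). Whether the transgene holds the sequence of this probe is not stated in the labels, so its signal does not check them.

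Markers of progenitors and of other cells were set beside the labels. Of 14 progenitor markers tested, 13 were well above background on all 4 arrays, 0 rose and 2 fell (median -0.28, summed signal 2694 to 2724 in the transgenic samples, against 3256 to 3954 in the wild-type samples, in units of the array's 75th percentile), with the surface receptor Pdgfra at 5.28 and 5.42 in the transgenic samples, against 5.23 and 5.32 in the wild-type samples. The 2 that fell were Cd24a, a surface protein of early progenitors, by 1.58 on the log2 scale (adjusted p = 0.0162 in the limma fit), and Pi16, a marker of progenitors in the fat stroma, by 1.16 (adjusted p = 0.0384 in the limma fit). Dpp4 (-0.71), Ly6a (-0.41) and Cd34 (-0.39) had lower values on both transgenic arrays and did not pass. The same held for Zfp423 (-0.44), Col1a1 (-0.33), Dcn (-0.23) and Itgb1 (-0.09). Dlk1 (0.93), Thy1 (0.61), Pdgfrb (0.40) and Lum (0.36) had higher values on both transgenic arrays and did not pass either. Of these, Dlk1 was well above background on only 1 wild-type array. Of 20 macrophage and myeloid markers, 17 were tested, 11 rose and 0 fell. Their median log2 difference was 2.12, and their summed signal ran from 65.6 to 67.7 in the transgenic samples, against 57.6 to 58.5 in the wild-type samples. All sums given here follow the brightest probes of their list and say little of the dimmer ones. The brightest myeloid probe, Itgam, gave 5.56 and 5.47 in the transgenic samples, against 5.56 and 5.60 in the wild-type samples. The markers Fcgr1, Cx3cr1 and Cd163 were well above background on no array, and 8 of the 17 were so on at most 1 wild-type array, so they passed the filter through the transgenic arrays. Of 14 endothelial markers 2 rose (median 1.84, summed signal 25.7 to 25.8 in the transgenic samples, against 25.2 to 29.5 in the wild-type samples), and 6 of the 14 were well above background on at most 1 wild-type array. The brightest endothelial probes, which weigh most in that sum, were those of Kdr, Tek and Eng. Of 10 smooth muscle and pericyte markers tested 3 rose and 1 fell (median 0.62, summed signal 21.8 to 22.2 in the transgenic samples, against 17.1 to 17.2 in the wild-type samples). Of those that rose, Rgs5 was well above background on no wild-type array and passed the filter through the transgenic arrays. Of 9 mature adipocyte markers tested 4 rose (median 1.90, summed signal 511 to 523 in the transgenic samples, against 289 to 294 in the wild-type samples). Of 7 neutrophil and mast cell markers tested 2 rose (median 1.21), of 7 lymphocyte markers tested 1 rose (median 0.36), and of 6 Schwann cell markers tested 1 rose and 1 fell (median 0.23). Of the tested markers 4 of the neutrophil and mast cell list, the called S100a8 and S100a9 among them, and 3 of the lymphocyte list, the called Cd3d among them, also reached the test through the transgenic arrays. Of 6 epithelial markers 1 was tested and did not pass, and Epcam and Cdh1 were well above background on no array. Of all features tested, 0.967% were called higher and 0.759% lower. Cell markers thus differed between the same arrays on which the proteases and inhibitors were compared, some up and some down. Their part in the differences of the proteases and inhibitors was not tested.

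The sequences that carry the measurements are the probes and, for the members with a promoter entry that are described most closely below, the bases before the start of the gene. The first 30 bases of the 60-base probes are shown for Mmp17, the member that passed the test, and for both probes of Timp2, which lie apart in the gene. The Mmp17 probe maps to chr5:130113835-130113894 of the mm9 build. The Timp2 probe used for the gene, the one with the higher mean, maps to chr11:118163146-118163205 and the other to chr11:118171964-118178741. The second Timp2 probe spans 6778 bases of the genome, so its 60 bases come from stretches that lie apart in it. No mm9 gene annotation was used here, so the probes are not assigned to exons or untranslated regions.
Mmp17 probe: gggtaggggcatctgaggtttccctgtctt
Timp2 probe, used for the gene: ccgtgagcgttcttgtgccgtgttgatgcc
Timp2 probe, spanning: taattgcaggaaaggcagaaggagatggca

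Of the 10 members, 7 had an entry in the RefSeq promoter table of build GRCm38.p6. The 250 bases before the start are shown for Mmp3, whose signal was higher on both transgenic arrays, and for Timp2 and Timp3, whose signal was lower on both. Capitals mark matches, on either strand, to the AP-1 motif TGANTCA, the TATA box TATAAA and the GC box GGGCGG. The Mmp3 stretch (chr9:7445572-7445821, plus strand) held 1 AP-1 match and 1 TATA box and no GC box. The Timp2 stretch (chr11:118355412-118355661, minus strand) and the Timp3 stretch (chr10:86300162-86300411, plus strand) each held 1 GC box and neither of the other motifs.
Mmp3: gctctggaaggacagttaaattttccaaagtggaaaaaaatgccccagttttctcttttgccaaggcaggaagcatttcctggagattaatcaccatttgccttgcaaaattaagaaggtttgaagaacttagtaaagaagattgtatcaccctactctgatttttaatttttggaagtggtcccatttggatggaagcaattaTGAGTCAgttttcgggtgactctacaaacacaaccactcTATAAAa
Timp2: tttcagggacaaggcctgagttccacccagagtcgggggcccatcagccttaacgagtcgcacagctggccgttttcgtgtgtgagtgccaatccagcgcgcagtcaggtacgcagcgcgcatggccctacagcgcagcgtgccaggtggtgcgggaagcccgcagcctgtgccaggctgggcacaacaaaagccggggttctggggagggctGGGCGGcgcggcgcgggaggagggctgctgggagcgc
Timp3: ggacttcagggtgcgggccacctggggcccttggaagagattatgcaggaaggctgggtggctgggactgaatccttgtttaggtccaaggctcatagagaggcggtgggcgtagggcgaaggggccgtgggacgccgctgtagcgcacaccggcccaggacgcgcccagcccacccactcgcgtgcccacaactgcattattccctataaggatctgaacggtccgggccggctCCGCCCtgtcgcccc

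Among 32851 promoters of the same length in that table, 6.75% held the AP-1 motif, 12.4% the TATA box and 32.7% the GC box. Of the 7 members with an entry, Mmp3 held the AP-1 motif and the TATA box, and 5 held a GC box. A match is a run of letters and does not show that a factor binds there.

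Which members of the family are measurable in these cells was asked first. The arrays carry probes for 27 MMP and TIMP genes, 23 MMPs and 4 TIMPs, and 11 of these genes had a probe well above background on all 4 arrays. They were the 10 members and Mmp27. Another 12 genes, Mmp1a, Mmp1b, Mmp7, Mmp8, Mmp9, Mmp10, Mmp12, Mmp13, Mmp16, Mmp20, Mmp21 and Mmp28, were well above background on no array. Among them are proteases known from leukocytes: neutrophil collagenase Mmp8, gelatinase B Mmp9 and macrophage elastase Mmp12. The Mmp9 probe has 10 spots on each array, and its mean was -5.63 and -5.28 in the transgenic samples, against -5.73 and -7.07 in the wild-type samples, all of these not well above background. The remaining 4 were seen on part of the arrays: Mmp25 on transgenic array 1, Timp4 on wild-type array 2, Mmp24 on both transgenic arrays and Mmp15 on both transgenic arrays and wild-type array 2. The plot of the whole family shows this division.

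**Figure D1:**
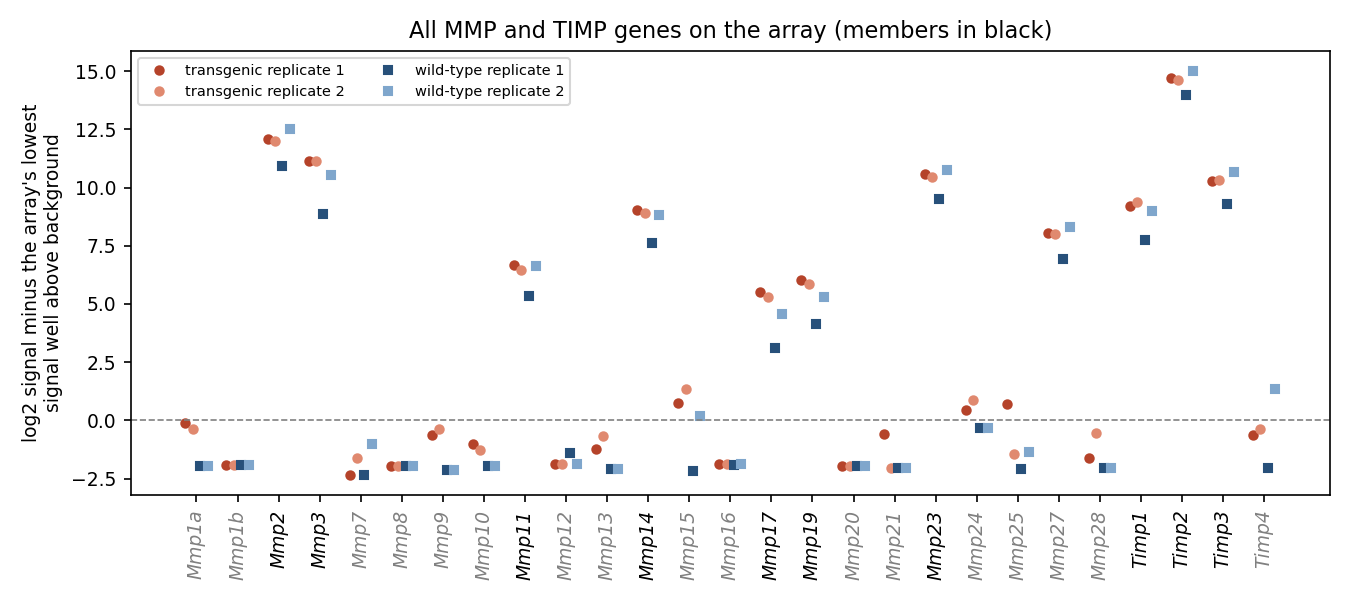
Log2 signal of 27 MMP and TIMP genes minus each array's lowest signal well above background (y axis, log2 units; 1 point per array, transgenic arrays as circles and wild-type arrays as squares, the probe with the highest mean for each gene; members named in black). The 10 members and Mmp27 lie above the dashed line on all 4 arrays, 12 genes were well above background on none, and wild-type array 1 had the highest limit, -3.60.

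On mouse chromosome 9, 10 MMP genes, from Mmp13 to Mmp7, lie together in the gene table of RefSeq. Of these 10, Mmp3 and Mmp27 were detected well above background on all 4 arrays, the other 8 on none. Mmp3 had a higher signal on both transgenic arrays. Mmp27, the other gene of the row that was measured, gave 3.07 and 3.08 in the transgenic samples, against 3.34 and 3.35 in the wild-type samples (difference -0.27 ± 0.08 SE, adjusted p = 0.174 in the limma fit). Its second probe was well above background on both transgenic arrays and 1 wild-type array. This probe gave -3.98 and -3.78 in the transgenic samples, against -4.72 and -4.50 in the wild-type samples. The difference of 0.73 ± 0.30 SE did not pass when probes were fitted singly (adjusted p = 0.273 in the limma fit). The 2 probes of Mmp27 thus differed in direction, and the size for the second is uncertain near background.

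Across the 10 members, the test of transgenic against wild-type samples called 1, Mmp17, higher, and 0 lower at an adjusted p under 0.05 in the limma fit. Of all 24518 features 1.73% were called, 0.967% higher and 0.759% lower. At an unadjusted p under 0.05 there were 7 of 10 members, 3 higher and 4 lower, where 19.0% of all features passed that mark, 9.25% higher and 9.76% lower. At an adjusted p under 0.10 there were 3 of 10 members, Mmp3, Mmp17 and Mmp19, all higher, where 4.61% of all features passed that mark and 2.40% were higher. The transgenic and wild-type arrays did not overlap for 8 of 10 members, 4 higher and 4 lower, against 53.1% of all features, 24.5% higher and 28.6% lower. The 10 members were all well above background on every array, and among the 20162 features that share this the figures were 1.71% called, 19.2% at an unadjusted p under 0.05 and 53.7% without overlap. The median difference was -0.03 over the members and -0.02 over all features. Features of an array vary together, so these shares do not measure an effect of genotype on the family. The members were also picked with earlier results of these data known, and Mmp27, well above background on every array, is not among them. Setting their shares beside those of all features is thus a description and not an independent test of enrichment.

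**Figure D2:**
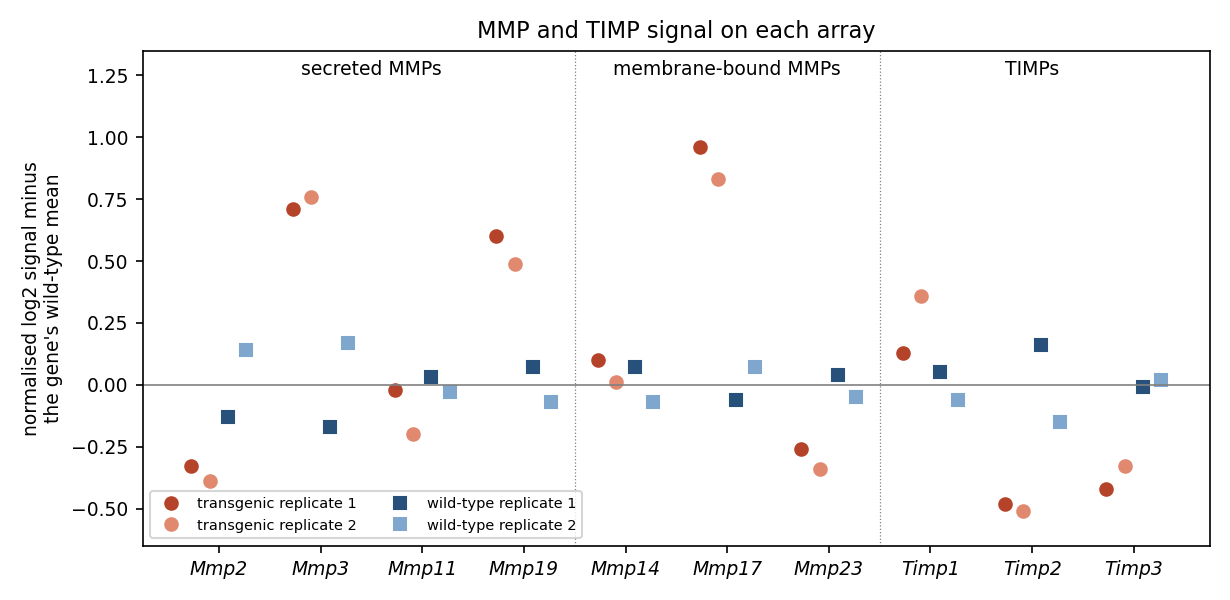
Normalised log2 signal of each member minus its mean over the wild-type arrays (y axis, log2 units), with the 2 transgenic arrays (circles) left of the 2 wild-type arrays (squares). Mmp3, Mmp17, Mmp19 and Timp1 were higher on both transgenic arrays than on either wild-type array, Mmp2, Mmp23, Timp2 and Timp3 were lower on both, and Mmp11 and Mmp14 overlapped.

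Among the secreted proteases, Mmp3, also called stromelysin 1, cleaves proteoglycans, fibronectin and basement membrane and activates other MMP precursors. Its normalised log2 signal was 6.15 and 6.20 in the transgenic samples, against 5.27 and 5.61 in the wild-type samples. Both transgenic values lay above both wild-type values by more than the gap between the wild-type arrays. The difference was 0.73 ± 0.13 SE, or 1.66-fold (95% interval 1.31 to 2.09), and did not pass over all features in the limma fit (adjusted p = 0.0736).

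The processed signal of Mmp3 before scaling was 25078 and 25649 in the transgenic samples, against 9249 and 16303 in the wild-type samples. The difference was 0.56 with wild-type array 1, the dimmer of the pair, left out and 0.90 with wild-type array 2 left out. Mmp3 passed the test in both of these fits, in which 1295 and 3998 features passed, and in neither fit without a transgenic array.

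Mmp19, a secreted protease able to cleave basement membrane components, gave 1.05 and 0.94 in the transgenic samples, against 0.52 and 0.38 in the wild-type samples. The groups were apart by more than either pair of arrays differed. The difference of 0.55 ± 0.12 SE, or 1.46-fold (95% interval 1.19 to 1.79), did not pass over all features in the limma fit (adjusted p = 0.0979). It passed in 0 of 12 other settings with all arrays, where it lay between 0.51 and 0.57.

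Mmp2, or gelatinase A, degrades denatured collagen and type IV collagen and is activated at the cell surface by membrane-type MMPs. It gave 7.12 and 7.06 in the transgenic samples, against 7.32 and 7.59 in the wild-type samples, so the values of the transgenic samples were lower on both arrays. The difference was -0.37 ± 0.12 SE, or 1.29-fold lower, and did not pass in the limma fit (adjusted p = 0.212). It was -0.20 under quantile normalization, -0.18 under normexp correction with quantile normalization, -0.23 without wild-type array 2 and -0.50 without wild-type array 1. Before scaling the groups overlapped, with a processed signal of 49316 and 46545 in the transgenic samples, against 38290 and 64139 in the wild-type samples.

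Mmp11, stromelysin 3, is a secreted protease that furin-type enzymes activate inside the cell, and it is known to be made by stromal cells. The probe used for the gene gave 1.71 and 1.53 in the transgenic samples, against 1.76 and 1.70 in the wild-type samples, and the groups overlapped. The difference was -0.11 ± 0.11 SE (95% interval -0.38 to 0.16, adjusted p = 0.626 in the limma fit), and -0.016 without transgenic array 2. The second probe gave -0.02 ± 0.13 SE, with values of 0.72 and 0.64 in the transgenic samples, against 0.58 and 0.83 in the wild-type samples.

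Among the membrane-bound proteases, Mmp17 passed the test. It encodes MT4-MMP, a protease that is attached to the outer membrane by a glycolipid anchor and that is known to activate the aggrecanase ADAMTS4. Its normalised log2 signal was 0.52 and 0.39 in the transgenic samples, against -0.50 and -0.37 in the wild-type samples. Each pair of arrays lay close together and the pairs were well apart. The rise was 0.89 ± 0.13 SE, or 1.85-fold (95% interval 1.48 to 2.32, adjusted p = 0.0474 in the limma fit).

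The raw spot signal of Mmp17 was 16.2 and 14.8 times the local background on the transgenic arrays, against 5.77 and 8.35 times on the wild-type arrays, and all 4 spots were well above background. The direction was the same in all 12 other settings with all arrays, between 0.74 and 0.92. The test was passed in 8 of these 12, and not with a median shift (adjusted p = 0.0795), quantile normalization (adjusted p = 0.0578), normexp correction with quantile normalization (adjusted p = 0.0596) or a variance model without an intensity trend (adjusted p = 0.114). Without transgenic array 1 the call was lost (difference 0.83, adjusted p = 0.213 in the limma fit), and without transgenic array 2 it was lost as well (difference 0.95, adjusted p = 0.141 in the limma fit).

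By the distance between the 4 array deviations from a gene's own mean, the genes nearest to Mmp17 among 12228 candidates were Gpm6b, Tspan9 and Tpm2. Gpm6b, a membrane proteolipid, lay at a distance of 0.0454 log2 units and gave 4.40 and 4.34 in the transgenic samples, against 3.42 and 3.54 in the wild-type samples (adjusted p = 0.0270 in the limma fit). With no intensity trend Gpm6b no longer passed (adjusted p = 0.108), nor with transgenic array 1 left out (adjusted p = 0.101) or with transgenic array 2 left out (adjusted p = 0.0804). The tetraspanin Tspan9 lay at 0.0493 and the tropomyosin Tpm2 at 0.0613, with adjusted p of 0.0837 and 0.0720 in the limma fit. With 4 arrays such likeness is a description of these samples.

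Mmp14 encodes MT1-MMP, a transmembrane collagenase known to be needed for fat cell development inside collagen and to activate the precursor of Mmp2 in a complex with Timp2. It gave 4.06 and 3.97 in the transgenic samples, against 4.03 and 3.89 in the wild-type samples. The groups overlapped, with a difference of 0.05 ± 0.09 SE, or 1.04-fold (95% interval 0.883 to 1.22, adjusted p = 0.787 in the limma fit). Mmp23, a membrane-anchored protease released by cleavage, gave 5.60 and 5.52 in the transgenic samples, against 5.90 and 5.81 in the wild-type samples. Both transgenic values were lower, with a difference of -0.30 ± 0.09 SE, or 1.23-fold, that did not pass (adjusted p = 0.175 in the limma fit).

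None of the 3 inhibitors passed the test. Timp1, an inducible inhibitor with growth-promoting activity, gave 4.23 and 4.46 in the transgenic samples, against 4.15 and 4.04 in the wild-type samples. The transgenic values were higher on both arrays, but the nearest values of the groups lay closer together than the transgenic arrays did. The difference of 0.25 ± 0.11 SE, or 1.19-fold, did not pass (adjusted p = 0.306 in the limma fit), and was 0.13 without transgenic array 2.

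Timp2, an inhibitor that also takes part in the activation of the Mmp2 precursor by Mmp14, gave 9.74 and 9.71 in the transgenic samples, against 10.38 and 10.07 in the wild-type samples, and the groups did not overlap. The difference was -0.50 ± 0.16 SE, or 1.41-fold lower (adjusted p = 0.188 in the limma fit). The spanning probe shown above gave 6.70 and 6.53 in the transgenic samples, against 7.24 and 7.26 in the wild-type samples, a difference of -0.64 ± 0.10 SE, or 1.55-fold lower, that did not pass when probes were fitted singly (adjusted p = 0.0594 in the limma fit). In that fit 1 of 12 member probes passed, that of Mmp17, against 1.75% of all probes. After scaling, both Timp2 probes therefore had lower values on both transgenic arrays. The size for the probe used depended on the scaling, with -0.31 under quantile normalization and -0.13 under normexp correction with quantile normalization. Leaving out 1 array, the difference for this probe lay between -0.65 and -0.34.

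Timp3, the inhibitor that binds to the matrix and also blocks ADAM and ADAMTS proteases, gave 5.30 and 5.39 in the transgenic samples, against 5.71 and 5.74 in the wild-type samples. The pairs of arrays were tight and did not overlap, and the difference of -0.37 ± 0.09 SE, or 1.30-fold lower, did not pass over all features (adjusted p = 0.114 in the limma fit). It passed in 0 of 12 other settings with all arrays, between -0.41 and -0.28. In the RefSeq gene table Timp1 lies within Syn1 and Timp3 within Syn3, genes for synapsins of nerve cells. The Syn1 probe gave -1.06 and -0.95 in the transgenic samples, against -0.42 and -0.43 in the wild-type samples, so its values lay opposite to those of Timp1, while no Syn3 probe passed the filter on signal.

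**Figure D3:**
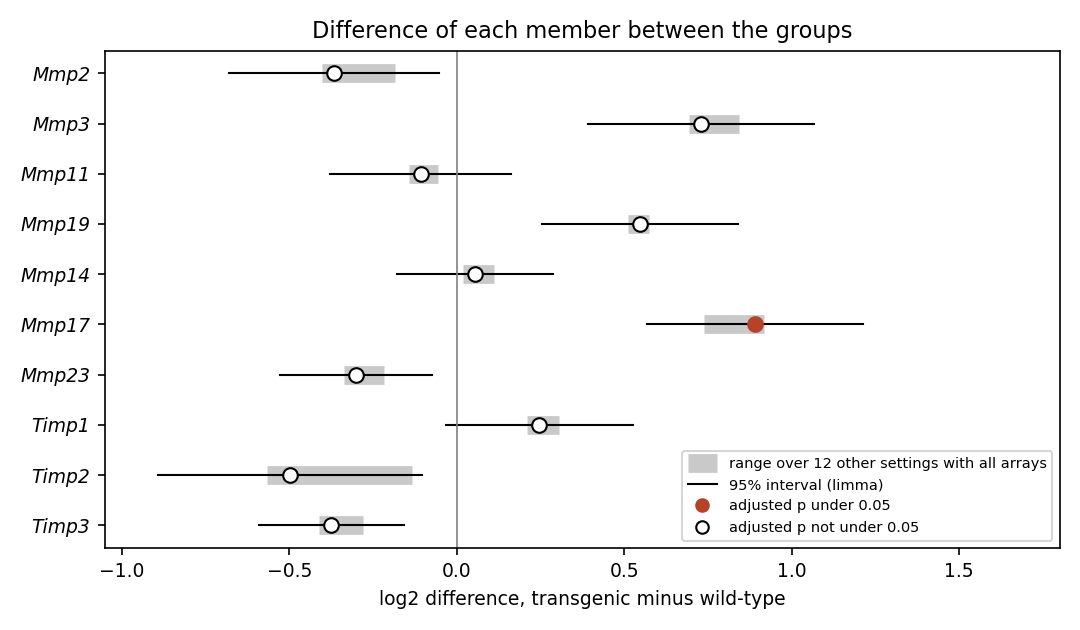
Log2 difference, transgenic minus wild-type, of each member (x axis), with the limma 95% interval as a line and the range over 12 other processing settings with all arrays as a grey bar. Mmp17 at 0.89 is filled because its adjusted p was under 0.05, the other 9 members are open, and the grey bar of Timp2 reaches from -0.57 to -0.13.

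The directions rest in part on the scaling between arrays. The 75th percentile of the log2 signal was higher by a mean of 0.32 on the transgenic than on the wild-type arrays, and this was subtracted. The percentile signal itself was 354 and 350 on the transgenic arrays, against 239 on wild-type array 1 and 333 on wild-type array 2, so wild-type array 1 carried most of the shift. Against wild-type array 2 alone, the unscaled log2 differences of Mmp2, Mmp23 and Timp3 were -0.42, -0.18 and -0.31. Before scaling, 5 members, Mmp3, Mmp14, Mmp17, Mmp19 and Timp1, were brighter on both transgenic arrays than on either wild-type array, Timp2 was dimmer on both, and 4 overlapped. By the probe used for each gene, Mmp3, Mmp17, Mmp19, Timp1 and Timp2 thus lay on the same side before and after scaling. Mmp2, Mmp23 and Timp3 were apart from both wild-type arrays after scaling. The spanning Timp2 probe read 36857 and 32384 in the transgenic samples before scaling, against 36223 and 51230 in the wild-type samples. The groups thus overlapped for that probe until the arrays were scaled. The processed signal of Timp3 before scaling was 13978 and 14692 in the transgenic samples, against 12520 and 17761 in the wild-type samples. The processed signal of Mmp17 was 506.0 and 459.6 in the transgenic samples, against 169.5 and 257.1 in the wild-type samples.

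The signal of each protease over each inhibitor was compared within arrays, since MMP activity is known to depend on the balance of enzyme and inhibitor. The unknown brightness of the probes cancels when the log2 ratio on an array is set against the wild-type mean of that ratio, and so does the scaling factor of the array. Background correction and quantile normalization do not cancel. Under normexp correction with quantile normalization Mmp2 (-0.18) and Mmp23 (-0.24) fell more than Timp2 (-0.13), so the sign of both ratios over Timp2 turned. In the percentile-scaled data the change over the 7 MMPs ran from 0.13 for Mmp2 to 1.39 for Mmp17 against Timp2. It ran from 0.01 for Mmp2 to 1.27 for Mmp17 against Timp3, and from -0.61 for Mmp2 to 0.64 for Mmp17 against Timp1. These 21 values follow from the 10 differences above and carry no test. They compare RNA signal, and neither protein nor enzyme activity was measured on these arrays.

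Relative to the wild-type mean, Mmp3 over Timp3 stood at 1.12 and 1.08 in the transgenic samples, against -0.16 and 0.16 in the wild-type samples, a ratio 2.15 times that of the wild-type samples. Mmp14 over Timp2, a pair of the Mmp2-activating complex, stood at 0.58 and 0.52 in the transgenic samples, against -0.09 and 0.09 in the wild-type samples. Mmp2 over Timp2 stood at 0.15 and 0.11 in the transgenic samples, between the -0.29 and 0.29 of the wild-type samples.

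**Figure D4:**
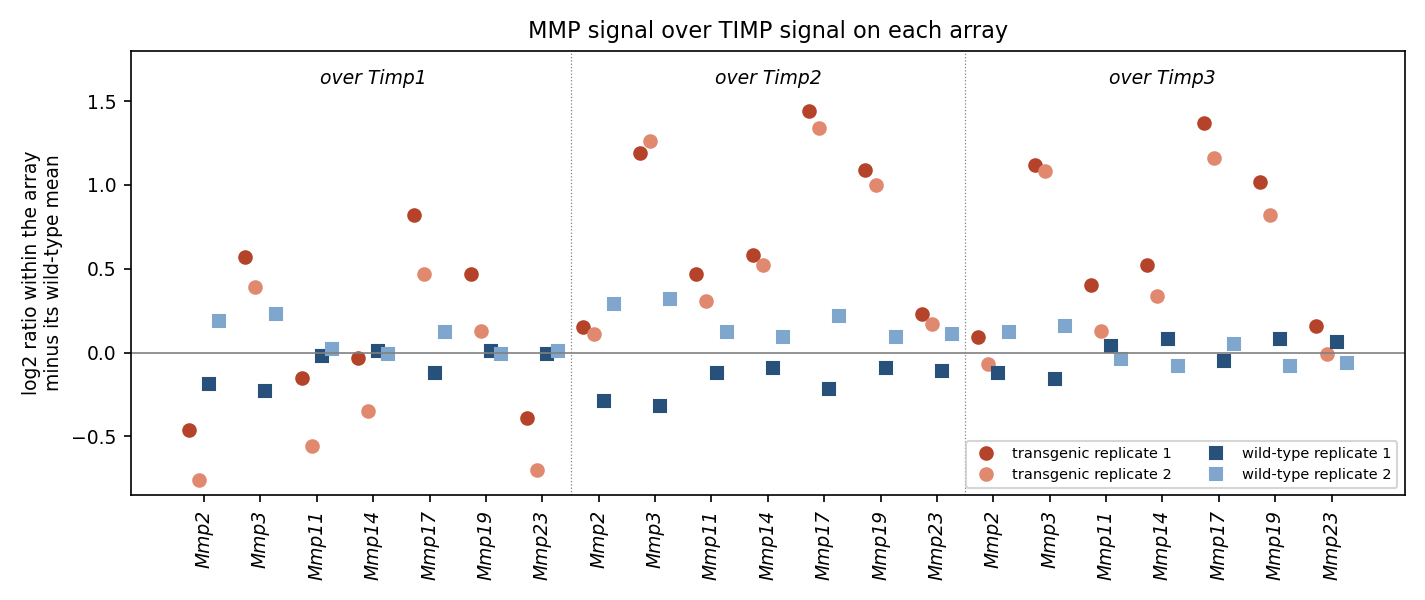
Log2 signal of each of 7 MMPs over each of 3 TIMPs within an array, minus the wild-type mean of that ratio (y axis, log2 units; transgenic arrays as circles, wild-type arrays as squares, 21 pairs). In these percentile-scaled data the changes run from 0.13 to 1.39 over Timp2, from 0.01 to 1.27 over Timp3 and from -0.61 to 0.64 over Timp1.

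The genes around the family were then described from lists of activators, other inhibitors, ADAM and ADAMTS proteases and substrates. Of 26 listed activators, receptors and inhibitors 22 were tested, 0 rose and 1 fell (median -0.06, against -0.02 over all features). The one that fell was Pcsk6, a proprotein convertase of the class that activates membrane-type MMPs. It gave 5.78 and 5.57 in the transgenic samples, against 6.57 and 6.50 in the wild-type samples (difference -0.85 ± 0.11 SE, 1.81-fold lower, adjusted p = 0.0380 in the limma fit). Pcsk6 no longer passed without transgenic array 1 (difference -0.96, adjusted p = 0.110), without transgenic array 2 (difference -0.75, adjusted p = 0.171) or with no intensity trend (adjusted p = 0.122). Furin, the best known convertase of this class, gave 2.22 and 2.29 in the transgenic samples, against 2.21 and 2.11 in the wild-type samples (adjusted p = 0.599 in the limma fit).

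The matricellular protein thrombospondin 1 (Thbs1), which binds MMPs, had the largest difference of that list but did not pass. It gave 2.78 and 3.29 in the transgenic samples, against 0.99 and 1.62 in the wild-type samples (difference 1.73 ± 0.26 SE, adjusted p = 0.0512 in the limma fit). It passed in 4 of 12 other settings with all arrays (adjusted p from 0.00482 with the replicate block to 0.141 with no intensity trend). Leaving out 1 array, the Thbs1 difference lay between 1.415 and 2.05. Reck, a membrane-anchored inhibitor of MMPs, was picked for mention after its values were seen, as was Furin. Reck gave 1.52 and 1.55 in the transgenic samples, against 2.22 and 2.05 in the wild-type samples (difference -0.60 ± 0.10 SE, 1.52-fold lower, adjusted p = 0.0655 in the limma fit). It passed in 2 of 12 other settings with all arrays, and was -0.95 with the mean of its probes. Leaving out 1 array, the Reck difference lay between -0.69 and -0.51. Serpine2 and Cd44 of the same list, also picked after their values were seen, had an adjusted p near that of Reck. Serpine2 was lower on both transgenic arrays (difference -0.54 ± 0.09 SE, adjusted p = 0.0621 in the limma fit). Cd44 was higher on both (difference 0.60 ± 0.10 SE, adjusted p = 0.0677 in the limma fit).

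Of 9 listed ADAM and ADAMTS proteases, among them Adam17, Adamts4 and Adamts5, which TIMP3 is known to inhibit, all were tested and 0 passed (median -0.09).  Adam12, a protease made in the stroma and in differentiating fat cells, gave -0.38 and -0.13 in the transgenic samples, against -1.63 and -1.31 in the wild-type samples (difference 1.22 ± 0.19 SE, adjusted p = 0.0538 in the limma fit). It passed in 4 of 12 other settings with all arrays (adjusted p from 0.0218 to 0.118). Leaving out 1 array, the Adam12 difference lay between 1.05 and 1.38. Adam17, the enzyme that releases TNF from the cell surface, gave -0.84 and -0.75 in the transgenic samples, against -0.27 and -0.32 in the wild-type samples (difference -0.50 ± 0.13 SE, adjusted p = 0.149 in the limma fit).

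Of 16 listed matrix substrates 14 were tested, 1 rose and 0 fell (median -0.09). The one that rose was Col4a1, a chain of basement membrane collagen and a substrate of gelatinases, with 6.85 and 6.88 in the transgenic samples, against 5.90 and 6.18 in the wild-type samples (difference 0.82 ± 0.12 SE, 1.77-fold, adjusted p = 0.0490 in the limma fit). Col4a1 no longer passed without transgenic array 1 (difference 0.84, adjusted p = 0.184), without transgenic array 2 (difference 0.81, adjusted p = 0.180), with a median shift (adjusted p = 0.0834), with the mean of a gene's probes (adjusted p = 0.0531) or with no intensity trend (adjusted p = 0.141). Its partner chain Col4a2 gave 6.45 and 6.43 in the transgenic samples, against 5.30 and 5.79 in the wild-type samples (difference 0.90 ± 0.17 SE, adjusted p = 0.0788 in the limma fit). It passed with no filter on dim probes (adjusted p = 0.0380) and with the replicate block (adjusted p = 0.0343). The Col4a2 difference was 0.65 without wild-type array 1 and 1.14 without wild-type array 2.

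Of the 17 MMP and TIMP genes on the array outside the members, 3 were tested and 0 passed. Besides Mmp27 these were Mmp15 and Mmp24, both membrane-type MMPs. Mmp15 gave -4.24 and -3.59 in the transgenic samples, against -5.79 and -4.75 in the wild-type samples. The first wild-type value was not well above background, and Mmp15 did not pass (adjusted p = 0.231 in the limma fit). The transgenic mean of -3.915 stood 1.20-fold above -4.173, the mean limit of the wild-type arrays. The first transgenic value lay below this limit, so 1.20-fold is not a lower bound on the difference. For each wild-type array that limit is the lowest signal that counted as well above background or, if this was lower, the signal of the Mmp15 probe itself. With normexp background correction the Mmp15 difference was 0.028. With wild-type array 2 left out the Mmp15 difference was 1.87, with the remaining wild-type spot not well above background.

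**Figure D5:**
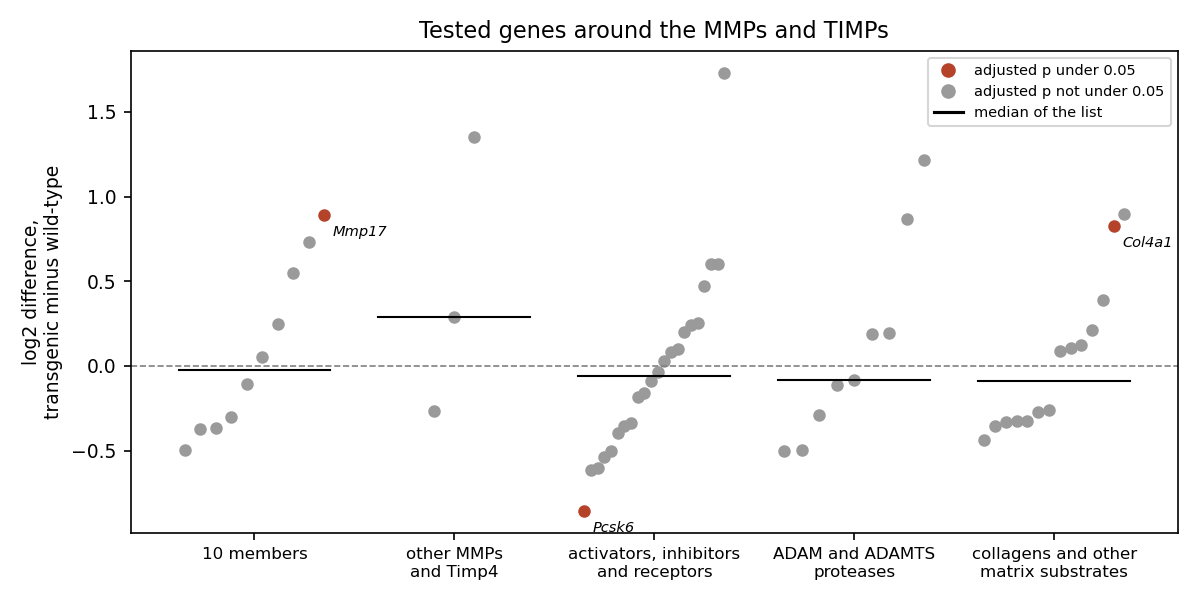
Log2 difference, transgenic minus wild-type (y axis), of each tested gene among the 10 members, 3 other MMPs, 22 activators, receptors and inhibitors, 9 ADAM and ADAMTS proteases and 14 matrix substrates, with the median of each group as a line. The filled red points are Mmp17, Pcsk6 and Col4a1, the 3 genes here with an adjusted p under 0.05.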

How the data were processed

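RNA of sorted subcutaneous progenitors was labelled with Cy3 by a low input single-colour kit, per the labels' protocols. Agilent Feature Extraction 10.7.3.1 read array design 028005 (mm9 coordinates), with all 4 arrays on 1 slide, per the file headers. The authors deposited raw intensity and a processed intensity from which that software had taken background and spatial trend, per the file headers. The authors' deposited value table holds log2 values, and no source used here states how they were made. Its columns correlated at 0.9998 or more with the log2 processed signal once that was percentile-scaled and each probe's median over arrays taken off. This shows its direction and its centring per probe. A correlation does not change with a factor or a constant added to a column, so it does not settle the scale. Column medians were -0.0455 and 0.0192 for the transgenic arrays and 0.195 and -0.0209 for the wild-type arrays.

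Control spots and outlier flags were left out, spots of a probe averaged on the log2 scale, and each array's 75th percentile over non-control spots subtracted. Names were updated through RefSeq accessions (26582 probes, 2892 to another symbol), while 29099 kept the design's name. The probe with the highest mean stood for a gene, which was tested where both arrays of either group had it well above background. The comparison used limma 3.58.1 in R 4.3.3 (intensity trend, residual degrees of freedom 2, prior 3.34, Benjamini-Hochberg over 24518 features, called at an adjusted p under 0.05), and the fit was tested on simulated data. The members, lists and tests were chosen with earlier results of these data known. Named were all members, called genes of the lists, the 2 list genes with the smallest p where fewer than 2 were called, Adamts1, and the 3 genes nearest to the member with the smallest p, which also had the largest difference. Sequences are from the array files and RefSeq. Alternatives covered scaling, background correction (normexp, offset 50), filter, variance model, probe choice, replicate block and leaving out each array. The depth of an array is its signal over background.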

Additional observations from a re-analysis of the deposited data

How the results depend on the processing

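Over 12 other settings with all arrays, all 10 members kept their direction in every one. The number of members that passed was 1, against 0 with a median shift, with quantile normalization, with normexp correction and quantile normalization, and with no intensity trend. It was 2, Mmp17 and Mmp3, with normexp correction, with no filter on dim probes and with the replicate block. With no intensity trend 0 of all features passed, although 4124 had an unadjusted p under 0.05. The count of all features was 423, against 340 with a median shift, 291 with quantile normalization, 287 with normexp correction and quantile normalization, 556 with normexp correction, 695 with no filter and 774 with the replicate block. Of listed genes around the family 2 passed, against 1 with a median shift, 6 with normexp correction, 7 with no filter, 6 with the replicate block and 0 with no intensity trend. Leaving out 1 array, the counts ran from 0 to 3 members, from 90 to 3998 features and from 0 to 19 listed genes. Fewer passed without a transgenic array (90 and 114 features) than without a wild-type array (1295 and 3998). One arm then holds 1 array, which is taken to vary like the intact pair. Leaving out 1 array, Mmp14 ran from -0.012 to 0.12, with its sign turned without wild-type array 2, and Mmp27 turned to 0.23 with the mean of its probes, of which 1 was not well above background on every array. The labels do not say whether the shared replicate numbers pair the samples. The correlation of TG1 minus TG2 with WT1 minus WT2 (transgenic, wild-type) was 0.00317 over features. It shows no shift shared by replicate number over features and cannot decide whether samples were paired. Signal near background limits Mmp15, Mmp24 and the 12 genes seen on no array. The cause of each change was not tested.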
